A study of Mus musculus with 13 samples.

Results

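Gene expression was measured by RNA sequencing of cortex from mice aged 6 months. The report concerns 7 genes of mouse chromosome 7, Nudt19, Kirrel2, Upk1a, Dmkn, Zfp128, Zfp84 and Mir3099, of the 20971 genes in the deposited table. They were chosen because the 2 genotypes did not overlap in any of them, outside the cluster of genes immediately around Apoe on the same chromosome. Their difference between the genotypes is therefore a description and was not tested. By the labels, the 7 APPPS1;Apoe-/- libraries came from mice with the APPPS1 transgenes and no functional copy of Apoe. The 6 APPPS1 libraries came from mice labelled with the same transgenes, with Apoe intact. Both groups are given the strain C57BL/6, and the design text counts the libraries as separate mice. APPPS1 mice express mutant human amyloid precursor protein and presenilin 1 under the Thy1 promoter, which is active in neurons, and deposit amyloid plaques in the cortex. The strain in which the Apoe allele was made is not given in the sources used here, and the table holds no sequence variants, so the alleles of the 7 genes were not measured.

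Apolipoprotein E carries cholesterol and other lipids between brain cells; astrocytes make most of it, and microglia near plaques add to it. The 7 genes are not known for a shared pathway with it. They encode an enzyme of coenzyme A breakdown, membrane proteins best known from the kidney filter and the bladder lining, a secreted protein of the epidermis, a pair of zinc finger proteins and a microRNA. Mouse chromosome 7 carries large clusters of zinc finger genes, many of whose proteins bind DNA sequences derived from transposable elements and recruit silencing complexes to them. MicroRNAs pair through their seed, bases 2 to 8 of the mature strand, with messenger RNAs and lower their translation or stability.

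The sequences of the microRNA and of 3 promoters are given because they identify the measured features and show what the promoters of the zinc finger genes share. They are RefSeq sequences on GRCm38.p6, of which 6 of the 7 genes had a promoter entry and Mir3099 had mature strands. Mir3099 lies on the plus strand as a hairpin of 84 bases, with the 5p strand at chr7:6803600-6803620 and the 3p strand at chr7:6803638-6803659. Capitals mark the seed, which in either strand was shared with 0 other names among 1679 mature mouse sequences.
mmu-miR-3099-5p: cCAGCUUCcuuccagcccuug
mmu-miR-3099-3p: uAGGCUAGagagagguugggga

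The next sequences are the 250 bases before the RefSeq start, read along the gene. The Nudt19 promoter is on the minus strand at chr7:35555929-35556178, and capitals mark its CG pairs, the sites at which mammalian DNA is methylated. That stretch lies inside the Nudt19 gene of the GENCODE annotation, which ends at 35556304. The annotations thus place the start differently, and which start is used in cortex was not measured. The Zfp128 promoter is at chr7:12880928-12881177 and that of Zfp84 at chr7:29768302-29768551, both on the plus strand. Their capitals mark the 12 letters GGGAANTGTAGT, the reverse complement of ACTACANTTCCC, a motif chosen after these promoters had been read.
Nudt19: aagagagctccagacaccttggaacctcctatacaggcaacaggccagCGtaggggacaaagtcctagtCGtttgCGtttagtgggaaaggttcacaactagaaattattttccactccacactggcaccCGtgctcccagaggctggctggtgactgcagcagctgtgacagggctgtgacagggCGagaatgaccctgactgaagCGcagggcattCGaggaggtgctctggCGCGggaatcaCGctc
Zfp128: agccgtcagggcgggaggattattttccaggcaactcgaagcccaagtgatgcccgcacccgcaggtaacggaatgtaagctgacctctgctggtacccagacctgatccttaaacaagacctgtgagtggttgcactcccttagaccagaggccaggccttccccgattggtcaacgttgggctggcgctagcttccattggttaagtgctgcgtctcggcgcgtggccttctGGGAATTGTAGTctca
Zfp84: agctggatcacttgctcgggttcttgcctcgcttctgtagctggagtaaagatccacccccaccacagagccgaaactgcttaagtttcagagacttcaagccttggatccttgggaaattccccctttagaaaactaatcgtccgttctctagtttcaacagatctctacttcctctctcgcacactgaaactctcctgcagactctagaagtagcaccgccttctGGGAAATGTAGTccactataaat

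Searched on both strands in windows from 250 bases before to 50 after each start, this motif began at position -16 from the start in Zfp128 and at position -23 in Zfp84. It was in 311 of 32851 promoter windows (0.947%), in 241 of 10250 tested genes with a window (2.35%) and in 20 of 78 tested chromosome 7 genes with zinc finger symbols (25.6%). The windows of Nudt19, Kirrel2, Upk1a and Dmkn did not hold these letters. Among the 76 other zinc finger genes, 4 of the 18 with the motif (22.2%) and 9 of the 58 without it (15.5%) were called different between the genotypes, beside 17.1% of all 82 tested genes of that list and 14% of chromosome 7 genes without the 7 and Apoe. The Zfp128 window held 17 CG pairs and the Nudt19 window 13, against a median of 7 over all windows, while the Upk1a window held 0. A match is a run of letters, and neither binding nor methylation was measured.

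Values are RPKM, reads scaled by gene length and library size. A difference is that of log2(RPKM + 0.5), APPPS1;Apoe-/- minus APPPS1, with the standard error (SE) of limma's fit, and understates the change of weakly expressed genes. Alignments numbered 18455493 to 34538031 in the APPPS1;Apoe-/- libraries and 28402328 to 77005806 in the APPPS1 libraries, so weak genes were measured less precisely without Apoe. Apoe itself, at chr7:19696109-19699188 on the minus strand, averaged 5.44 ± 0.888 RPKM without Apoe (SD, n = 7) and 581 ± 84.2 RPKM in APPPS1 (SD, n = 6). App, where transgene reads may also be counted, was low in 2 libraries without Apoe, replicate 2 (106 RPKM) and replicate 5 (116 RPKM). In the other 11 libraries it lay between 176 and 217 RPKM. Thy1, whose promoter drives the transgenes, was low in the same 2 libraries, at 52.2 RPKM in replicate 2 and 56.9 RPKM in replicate 5. In the other 11 libraries Thy1 lay between 172 and 245 RPKM. Whether these 2 mice carried the transgenes as labelled was not tested. By Xist and Y-linked genes, 2 APPPS1;Apoe-/- libraries and 1 APPPS1 library were from males. Cortical excitatory neuron markers, all 7 of 7 tested, summed to 97.8 to 115 RPKM without Apoe and 103 to 123 RPKM in APPPS1. Of these, Slc17a7, the vesicular glutamate transporter gene, was called lower without Apoe (-0.42, limma with Benjamini-Hochberg adjustment, adjusted p = 0.0245). That call ended without both low-App libraries (adjusted p = 0.0863) or without APPPS1 replicate 1, 2 or 6 (adjusted p = 0.0556 to 0.0618). It also ended with log2 alignments as a covariate (adjusted p = 0.0762) and with no filter on low values (adjusted p = 0.0629).

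Of the 7 genes, 5 were higher without Apoe (Kirrel2, Upk1a, Zfp128, Zfp84 and Mir3099) and 2 were lower (Nudt19 and Dmkn). The size of their differences had a median of 1.19 on the log2 scale, against 0.09 over all 13343 tested genes, a contrast that the choice of the genes favours. Genotypes that do not overlap were found in 3.72% of all tested genes (1.54% higher and 2.17% lower without Apoe) and in 7.74% of those on chromosome 7, beside 7 of 7 here by choice. All 7 genes passed the filter of a mean of 0.5 RPKM over all libraries. Kirrel2, at 0.497 RPKM, and Upk1a, at 0.249 RPKM, averaged below that limit in the APPPS1 group and passed through their values without Apoe. More than 1 Mb from Apoe, 69 of 949 tested chromosome 7 genes had genotypes that did not overlap, and 62 of these are not among the 7. Of the 7, Zfp128 had the smallest gap between the groups (0.38 on the log2 scale) and so lay nearest the edge of the rule, at 2.26 to 2.77 RPKM without Apoe and 1.01 to 1.63 RPKM in APPPS1. Meis3, a homeobox gene, lay just outside, at 3.78 to 5.56 RPKM without Apoe and 5.54 to 6.65 RPKM in APPPS1.

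**Figure D1:**
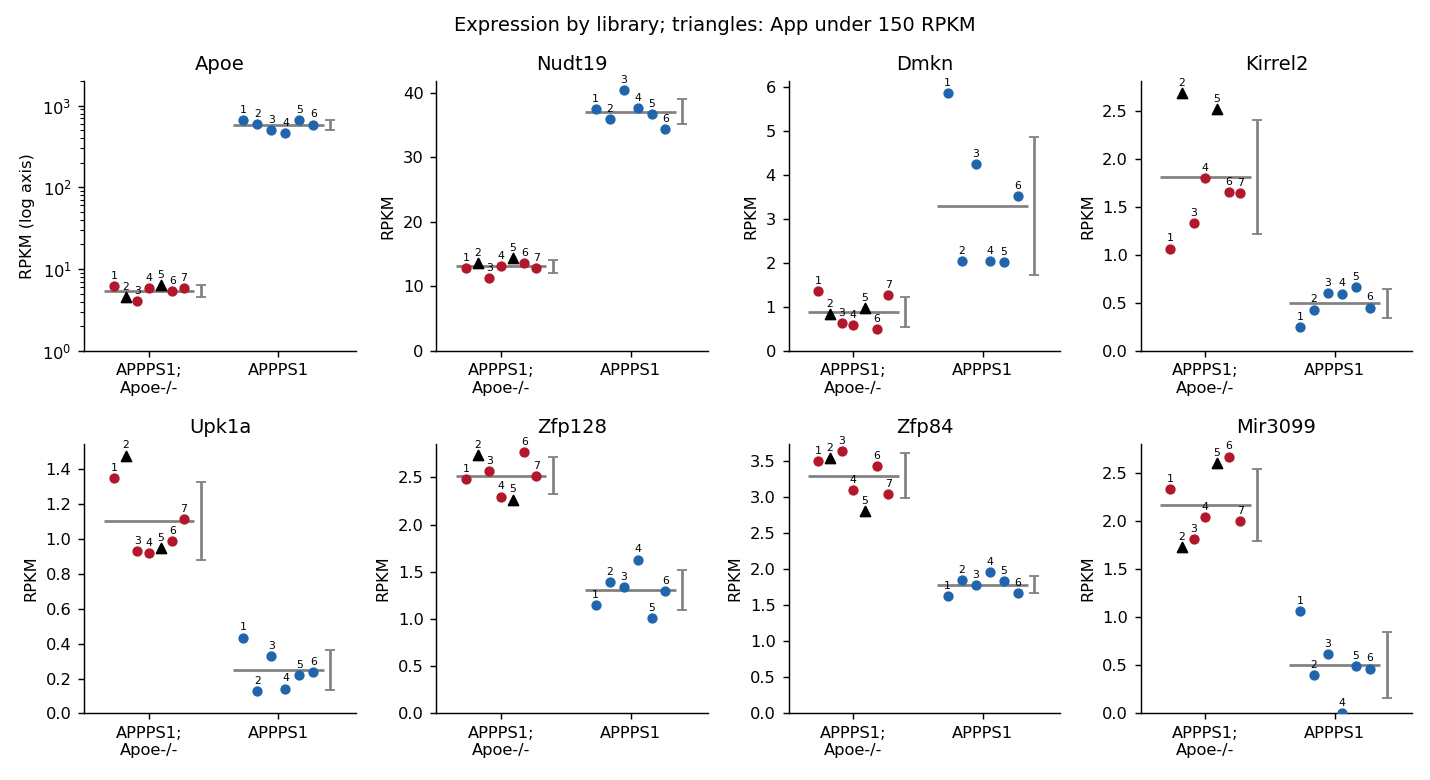
RPKM of Apoe (log axis) and of the 7 genes (linear axes from 0) in each library, numbered by replicate, with APPPS1;Apoe-/- on the left and APPPS1 on the right of each panel; lines and whiskers are the mean and SD (n = 7 and n = 6). Triangles are the 2 libraries with App under 150 RPKM, which lie on the side of their genotype in every panel, as the choice of the genes requires.

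Nudt19 encodes a peroxisomal Nudix hydrolase that cleaves coenzyme A and its acyl esters. Of the 7 it had the widest gap between the groups on the log2 scale (1.23), though not the largest fold change. It lies at chr7:35547185-35556304 on the minus strand, 15.85 Mb beyond Apoe. Its level was 11.3, 13.2 and 14.3 RPKM (lowest, median and highest) in the APPPS1;Apoe-/- libraries, against 34.4, 37.1 and 40.4 RPKM in the APPPS1 libraries. All 7 libraries without Apoe sat in a narrow band below the narrow band of the other 6, and the closest libraries of the 2 groups differed 2.40-fold. The group means were 13.1 ± 0.965 RPKM without Apoe (SD, n = 7) and 37.1 ± 1.99 RPKM in APPPS1 (SD, n = 6), 2.83-fold higher in APPPS1. The log2 difference was -1.47 ± 0.05 (SE), which is 15.7 times the spread within groups of 0.0933 (SD on the log2 scale). The libraries with low App, replicates 2 and 5, had 13.6 and 14.3 RPKM, just above the 11.3 to 13.5 RPKM of the other 5 without Apoe. Without both of them the difference was -1.51. An antisense gene, B230322F03Rik, overlaps Nudt19 and has no column of its own here. Whether the counting used strand is not given in the sources used here, so reads of the 2 genes cannot be told apart.

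Kirrel2 encodes an adhesion protein of the nephrin family, known from the slit diaphragm of the kidney, from pancreatic islets and from the sorting of olfactory axons. It lies at chr7:30447534-30457690 on the minus strand, 10.75 Mb beyond Apoe. Without Apoe it had 1.07, 1.65 and 2.70 RPKM (lowest, median and highest), against 0.249, 0.524 and 0.661 RPKM in APPPS1. The groups did not overlap, but the libraries without Apoe were spread wide, with replicates 2 and 5 at the top. The mean was 1.82 ± 0.595 RPKM without Apoe (SD, n = 7) and 0.497 ± 0.152 RPKM in APPPS1 (SD, n = 6), a difference of 1.19 ± 0.15 (SE). Of the 7 differences, that of Kirrel2 moved most when the low-App libraries were left out. The low-App replicates 2 and 5 had 2.70 and 2.52 RPKM, above the 1.07 to 1.80 RPKM of the other 5. The difference without both was 1.01. Nphs1, which encodes nephrin and marks podocytes of the kidney, was at 0.0145 to 0.124 RPKM without Apoe and 0.0370 to 0.123 RPKM in APPPS1.

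Upk1a encodes a uroplakin, a tetraspanin of the plaques that cover the bladder lining. It lies at chr7:30603092-30612847 on the minus strand, 10.91 Mb beyond Apoe. It had 0.919, 0.987 and 1.48 RPKM (lowest, median and highest) without Apoe, against 0.128, 0.230 and 0.434 RPKM in APPPS1. Replicates 1 and 2 were the highest without Apoe and the others lay close together, all above the APPPS1 libraries. The mean was 1.10 ± 0.224 RPKM without Apoe (SD, n = 7) and 0.249 ± 0.117 RPKM in APPPS1 (SD, n = 6), which is 4.43-fold higher without Apoe. The log2 difference was 1.10 ± 0.11 (SE), and 1.83 with a pseudocount of 0.1 in place of 0.5. Of the low-App libraries, replicate 2 had the highest value, 1.48 RPKM, and replicate 5 had 0.948 RPKM, within the 0.919 to 1.35 RPKM of the other 5. Of 3 other markers of the bladder lining, Upk2, the partner of Upk1a, lay at 0 to 0.262 RPKM without Apoe and 0 to 0.0766 RPKM in APPPS1. Upk3a lay at 0 to 0.219 RPKM without Apoe and 0.0843 to 0.303 RPKM in APPPS1, and Upk1b at 0.922 to 1.58 RPKM without Apoe and 1.45 to 2.36 RPKM in APPPS1.

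Dmkn encodes dermokine, a secreted protein of the upper epidermis, and was the least tight of the 7. It lies at chr7:30763756-30781063 on the plus strand, 11.07 Mb beyond Apoe. Its level was 0.493, 0.827 and 1.36 RPKM (lowest, median and highest) without Apoe, against 2.02, 2.78 and 5.87 RPKM in APPPS1. In APPPS1, replicates 2, 4 and 5 were close to 2.02 RPKM and replicate 1 was the highest. The closest libraries of the 2 groups differed 1.49-fold. The mean was 0.876 ± 0.340 RPKM without Apoe (SD, n = 7) and 3.29 ± 1.57 RPKM in APPPS1 (SD, n = 6), 3.76-fold higher in APPPS1. The log2 difference was -1.40 ± 0.22 (SE), or 3.02 times the spread within groups. Both low-App libraries, at 0.827 and 0.977 RPKM, lay inside the 0.493 to 1.36 RPKM of the other 5, which was so for no other of the 7 genes. Of 6 keratinocyte and simple epithelium markers (Krt5, Krt14, Krt8, Krt18, Epcam and Cdh1), 0 passed the filter. Their summed level was 0.399 to 2.33 RPKM without Apoe and 0.622 to 0.851 RPKM in APPPS1.

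Zfp128 and Zfp84 encode zinc finger proteins and had smaller but tight steps, both upward without Apoe. Zfp128 lies at chr7:12881177-12893422 on the plus strand, on the other side of Apoe from Nudt19 (-6.81 Mb). It had 2.26, 2.51 and 2.77 RPKM (lowest, median and highest) without Apoe, against 1.01, 1.32 and 1.63 RPKM in APPPS1. All libraries without Apoe lay above the highest APPPS1 library, replicate 4. The mean was 2.52 ± 0.195 RPKM without Apoe (SD, n = 7) and 1.30 ± 0.212 RPKM in APPPS1 (SD, n = 6), a log2 difference of 0.75 ± 0.08 (SE). The low-App replicates 2 and 5 had 2.74 and 2.26 RPKM, near the top and at the bottom of their group, and leaving both out left the difference at 0.75.

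Zfp84 lies at chr7:29768552-29779821 on the plus strand, 10.07 Mb beyond Apoe. Its level was 2.81, 3.43 and 3.64 RPKM (lowest, median and highest) without Apoe, against 1.63, 1.81 and 1.96 RPKM in APPPS1. The APPPS1 libraries were close together and the lowest library without Apoe was replicate 5, a low-App library. The mean was 3.30 ± 0.313 RPKM without Apoe (SD, n = 7) and 1.79 ± 0.122 RPKM in APPPS1 (SD, n = 6), a log2 difference of 0.73 ± 0.06 (SE) or 7.02 times the spread within groups. Replicates 2 and 5 had 3.55 and 2.81 RPKM, where the other 5 without Apoe had 3.04 to 3.64 RPKM, and without both the difference was 0.75. Mir1964, a microRNA gene within Zfp84, was at 0 to 0.517 RPKM without Apoe and listed at 0 in APPPS1.

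Mir3099 is a microRNA gene described in the developing mouse nervous system. Its hairpin lies at chr7:6803587-6803670 on the plus strand (-12.89 Mb from Apoe), inside Usp29, an imprinted gene for a ubiquitin-specific protease, and overlaps no annotated exon of it. It had 1.73, 2.04 and 2.67 RPKM (lowest, median and highest) without Apoe, against 0, 0.478 and 1.07 RPKM in APPPS1. Because the feature is short, these values rest on few reads. Each value times the library's alignments was a whole multiple of the smallest within 0.1, which gives, if that smallest value is 1 read, 3 or 4 reads in each library without Apoe and 0 to 3 in each APPPS1 library. In sum this is 25 reads of 185350744 alignments without Apoe and 9 of 254914727 in APPPS1. Per 100000000 alignments the rates were 13.5 reads without Apoe and 3.53 reads in APPPS1. These rates pool the reads of several mice and describe values by which the gene was chosen, so they test nothing. The mean was 2.17 ± 0.373 RPKM without Apoe (SD, n = 7) and 0.507 ± 0.346 RPKM in APPPS1 (SD, n = 6), a log2 difference of 1.47 ± 0.19 (SE). The low-App replicates 2 and 5 had 1.73 and 2.60 RPKM, the lowest and the second highest without Apoe. Usp29 averaged 2.12 ± 0.193 RPKM without Apoe and 2.14 ± 0.378 RPKM in APPPS1, a difference of 0.00 (limma with Benjamini-Hochberg adjustment, adjusted p = 0.997). Reads of the hairpin and of the Usp29 intron that holds it cannot be told apart in total RNA.

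Over all 7 genes, 8 of the 14 values from the low-App libraries fell outside the range of the other 5 libraries without Apoe and 6 fell inside. None crossed to the APPPS1 side, which the choice of the genes fixes. Steps were measured by the step share, the gap between the groups divided by the range over all 13 libraries on the log2(RPKM + 0.5) scale. Nudt19 had the largest share after Apoe, 0.686, followed among the 7 by Zfp84 (0.447), Upk1a (0.364), Zfp128 (0.339), Kirrel2 (0.207), Mir3099 (0.190) and Dmkn (0.164). The median was 0.0867 over the 496 tested genes whose genotypes did not overlap. A large difference was not always a clean step: Dmkn and Nudt19 differed by -1.40 and -1.47, but the spread within groups was 0.465 in Dmkn and 0.0933 in Nudt19, with a median of 0.132 over all tested genes. In size 17 genes differed by more than Nudt19.

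**Figure D2:**
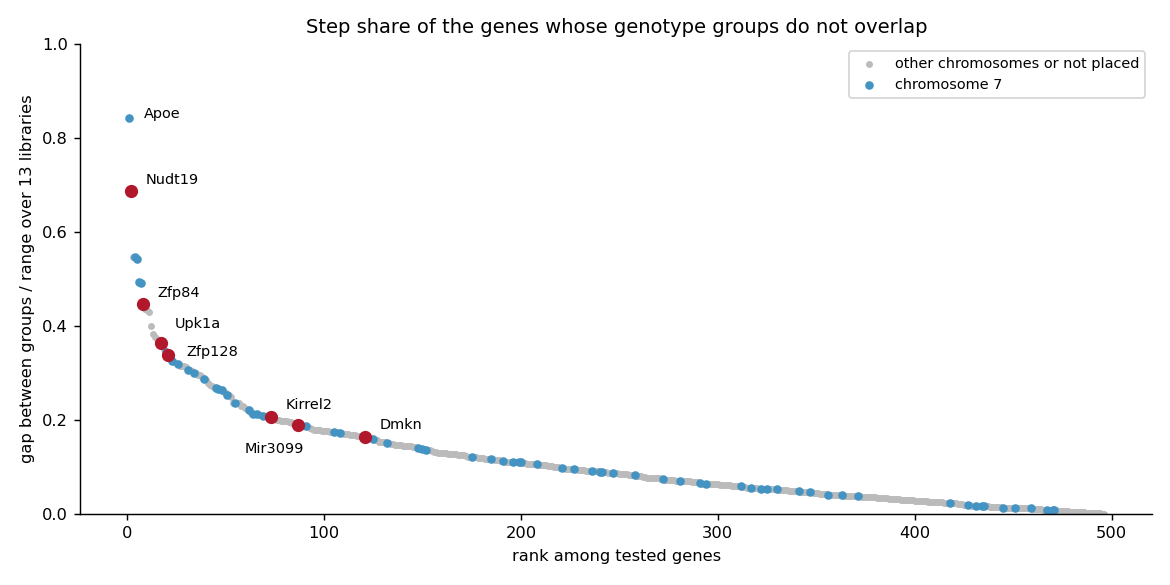
Step share (gap between the genotypes divided by the range over 13 libraries, vertical axis) of the 496 tested genes whose genotypes did not overlap, by rank. Red points are the 7 genes, blue points the other chromosome 7 genes and grey points all others; Nudt19, at 0.686, stands next to Apoe, while Dmkn, at 0.164, lies at rank 121.

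The genes whose pattern was most like these, by step share over 13 libraries, included genes on and off chromosome 7. Of the 10 largest after Apoe, Nudt19 and Zfp84 are among the 7 genes, and 4 of the other 8 lie on chromosome 7. Zfp14, a zinc finger gene 10.34 Mb beyond Apoe, had 4.99 to 5.84 RPKM without Apoe and 2.95 to 3.45 RPKM in APPPS1 (step share 0.543). Cars, for cysteinyl-tRNA synthetase, and Itgax, for the integrin CD11c of microglia and dendritic cells, stood at 0.490 and 0.493 and lay 123.9 and 108.4 Mb beyond Apoe. Itgax was weak, at 0.0348 to 0.266 RPKM without Apoe and 0.785 to 1.02 RPKM in APPPS1. It passed the filter of 0.5 RPKM through its APPPS1 values. Off chromosome 7, Wdfy1, which encodes an endosomal adaptor protein on chromosome 1, had 3.79 to 4.56 RPKM without Apoe and 10.9 to 18.4 RPKM in APPPS1 (0.547). Gusb, the lysosomal β-glucuronidase gene, Lrig1, a regulator of growth factor receptors, and Slc11a1, a phagosomal metal transporter gene, had shares of 0.435, 0.434 and 0.430.

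Genes beside the 7 were chosen by position and not by value, so they could be tested. Of the 42 tested genes lying nearest to the 7, with 3 on each side of each, 1 rose and 5 fell without Apoe and 36 did not pass (limma, Benjamini-Hochberg adjusted p under 0.05). That is 14.3%, beside 8.23% of all tested genes (3.48% higher and 4.74% lower) and 14% of the chromosome 7 genes without the 7 and Apoe. The median size of their difference was 0.11, beside 0.09 over all tested genes. When the fit held log2 alignments as a covariate, 1 of the 42, Hcst, was called.

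The nearest neighbours of Nudt19, the centrosomal gene Cep89 (-0.23, adjusted p = 0.0517) and Ankrd27 (0.18, adjusted p = 0.162), did not pass over all libraries in limma's fit. Cep89 passed without APPPS1 replicate 2, or without APPPS1;Apoe-/- replicate 2 or 7 (adjusted p = 0.0435, 0.0281 and 0.0474), and with a filter of 1 RPKM (adjusted p = 0.0492). Ankrd27 passed without APPPS1;Apoe-/- replicate 5 (adjusted p = 0.0364) and without both low-App libraries (0.26, adjusted p = 0.0430). Kirrel2 sits between Aplp1, an App relative (-0.11, adjusted p = 0.268), and Arhgap33 (-0.08, adjusted p = 0.489). Upk1a sits between the histone methyltransferase gene Kmt2b (-0.12, adjusted p = 0.408) and the respiratory chain gene Cox6b1 (-0.07, adjusted p = 0.490). On either side of Zfp128 were Zfp110 (-0.01, adjusted p = 0.962) and Zscan22 (0.05, adjusted p = 0.743), also zinc finger genes. Zfp84 had Dpf1 (-0.10, adjusted p = 0.404) and Zfp30 (-0.06, adjusted p = 0.671) beside it, and Mir3099 had Zfp954 (0.15, adjusted p = 0.185) on the side away from the Usp29 start.

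Dmkn alone had a nearest neighbour that passed. Sbsn, which encodes suprabasin, another secreted epidermal protein, starts 12.3 kb before Dmkn and fell to 2.03 ± 0.157 RPKM without Apoe (SD, n = 7), against 3.38 ± 0.825 RPKM in APPPS1 (SD, n = 6). Its log2 difference was -0.59 ± 0.11 (SE; limma, adjusted p = 0.00378), and -0.38 with the alignments covariate (adjusted p = 0.105). Mag, the myelin-associated glycoprotein gene on the other side of Dmkn, differed by 0.14 (adjusted p = 0.463). Krtdap, the third secreted epidermal gene listed here, was too low to test, at 0 to 0.737 RPKM without Apoe and 0 to 0.171 RPKM in APPPS1. The other neighbours that passed, named after their values were seen, were Rhpn2 (0.33, adjusted p = 0.00870) and Pdcd5 (-0.20, adjusted p = 0.0276) near Nudt19, Hcst (-0.83, adjusted p = 0.00523) near Kirrel2, Haus5 (-0.34, adjusted p = 0.0185) near Upk1a and Ppp1r14a (-0.63, adjusted p = 0.0202) near Zfp84. The call of Pdcd5 ended without any of APPPS1 replicates 1, 2 and 6 or of APPPS1;Apoe-/- replicates 1, 2 and 3 (adjusted p = 0.0512 to 0.0692). That of Ppp1r14a ended with no filter on low values (adjusted p = 0.0578). Hcst encodes a signalling adaptor of immune cells. Of 5 microglial markers 2 fell and 0 rose, with summed levels of 77.9 to 131 RPKM without Apoe and 135 to 160 RPKM in APPPS1. The low-App replicates 2 and 5 had the lowest sums, 77.9 and 83.3 RPKM, and the other libraries without Apoe had 113 to 131 RPKM. The part of microglia in these results was not tested. In cortex RNA fewer cells of a type and less RNA per cell cannot be told apart.

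**Figure D3:**
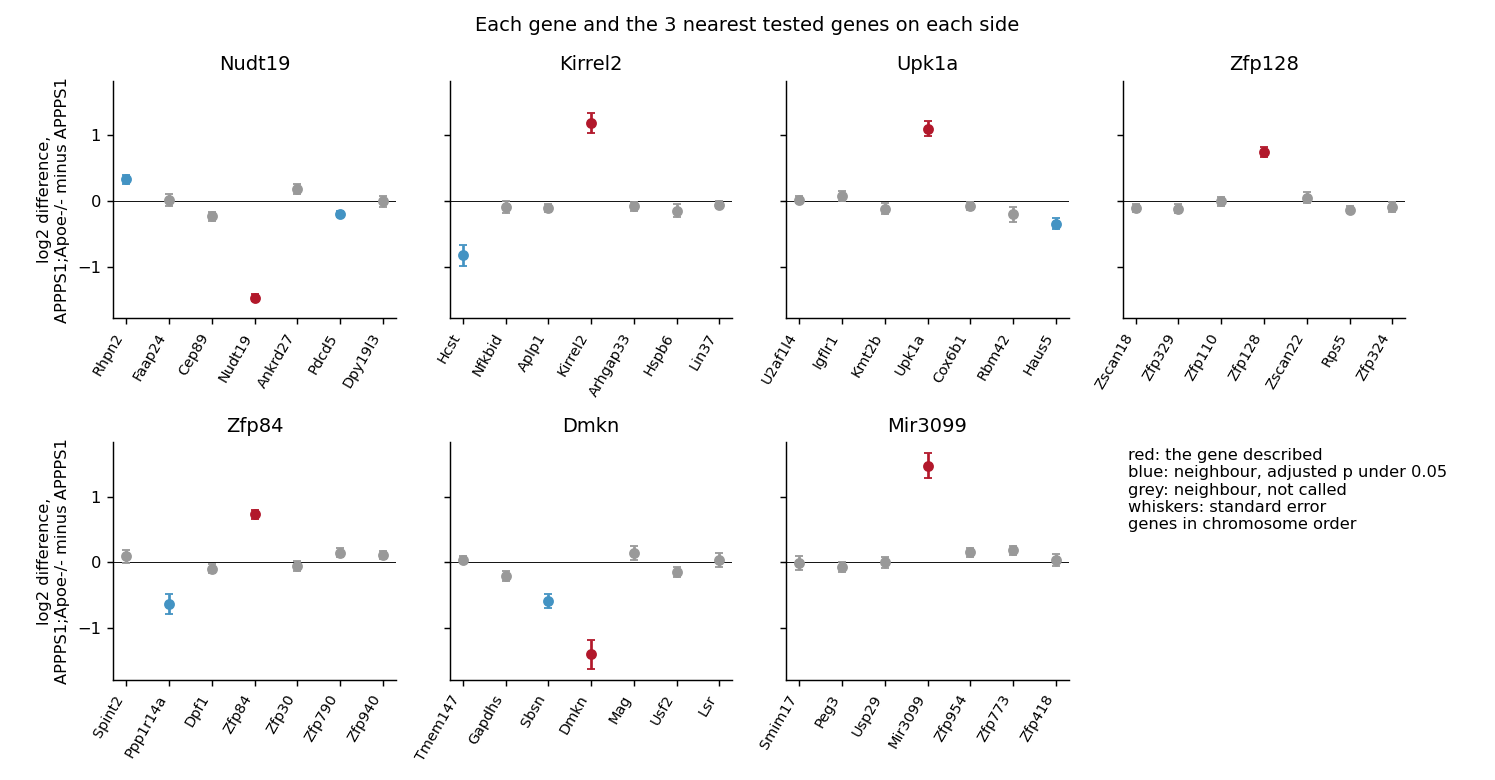
Log2 difference (APPPS1;Apoe-/- minus APPPS1, vertical axis, with SE) of each of the 7 genes in red and of the 3 nearest tested genes on each side in chromosome order; blue neighbours passed at an adjusted p under 0.05 and grey ones did not. The neighbours' differences have a median size of 0.11; the red points are larger in size by the choice of the genes.

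Zfp84, Kirrel2, Upk1a and Dmkn lie within 1.01 Mb. Among the 40 other tested genes of that stretch, 2 rose (Zfp74 and Zfp14) and 32 did not pass. The 6 that fell were Tyrobp, Hcst, Alkbh6, Sbsn, Haus5 and Capns1, all 8 being named after their values were seen. The share called was 20%, beside 8.23% of all tested genes. Of the 40, Tyrobp had the largest difference in size (-1.39, limma, adjusted p = 0.00125). On the whole chromosome, without the 7 and Apoe, 136 of 974 tested genes were called (47 higher and 89 lower without Apoe), or 14%, against 7.72% of the tested genes placed elsewhere. Chromosome 7 had the highest share of 20 chromosomes, the next being chromosome 19 with 11.6%. In bins of 10 Mb the share was 25.3%, 19.1% and 22.9% from 10 to 40 Mb, which holds Apoe and 6 of the 7 genes, and 10.9% from 0 to 10 Mb, which holds Mir3099. From 40 Mb to the end, 72 of 650 genes were called, or 11.1%. With the 7 and Apoe included, 144 chromosome 7 genes were called (14.7%), and 45 with the alignments covariate.

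**Figure D4:**
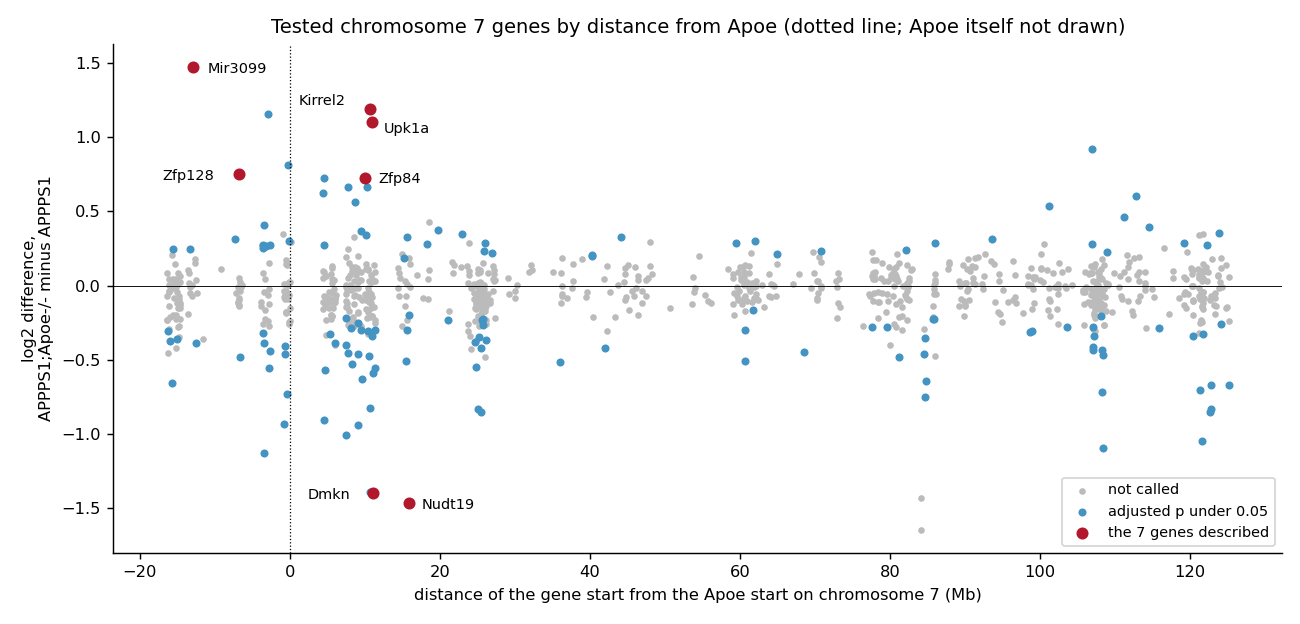
Log2 difference (APPPS1;Apoe-/- minus APPPS1, vertical axis) of every tested chromosome 7 gene against the distance of its start from that of Apoe in Mb (horizontal axis); red marks the 7 genes, blue the others with an adjusted p under 0.05 and grey those that did not pass. Apoe itself is not drawn; the 7 genes lie between -12.89 and 15.85 Mb of it, on both sides of the zero line.

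Relatives of the 7 genes were also tested over all libraries, listed by function or, for zinc finger and microRNA genes, by symbol. The zinc finger list was confined to chromosome 7. Of the 169 tested, 10 rose and 9 fell without Apoe (11.2%, beside 8.23% of all tested genes). All 10 that rose and 4 that fell were among the 82 zinc finger genes of chromosome 7. Their share was 17.1%, beside 14% of the chromosome 7 genes without the 7 and Apoe. Without APPPS1 replicate 2 or replicate 6 the 19 calls were 12 and 11, and with the alignments covariate 7. Among 21 other Nudix hydrolases 0 rose and 2 fell, Nudt14 (-0.29, adjusted p = 0.0252) and Nudt16 (-0.28, adjusted p = 0.0417), which cleave nucleotide sugars and inosine nucleotides. The call of Nudt14 ended without APPPS1 replicate 2 or 6 (adjusted p = 0.0620 and 0.0584) and with the alignments covariate (adjusted p = 0.102). That of Nudt16 ended without any of APPPS1 replicates 1, 2, 3, 4 and 6 or of APPPS1;Apoe-/- replicates 6 and 7 (adjusted p = 0.0606 to 0.0937). The Nudt16 call also ended with the alignments covariate (adjusted p = 0.132), the sex score covariate (adjusted p = 0.0565) and no filter on low values (adjusted p = 0.0769). Of 7 genes of coenzyme A synthesis, the pathway opposite to Nudt19, 0 passed in limma's fit, the smallest adjusted p being that of Pank4, which encodes a pantothenate kinase homologue (0.20, adjusted p = 0.0775).

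No relative of Kirrel2 among 7 tested genes of the nephrin family and slit diaphragm passed (limma), Kirrel3, its paralogue in neurons, differing by -0.11 (adjusted p = 0.339). Of 5 other uroplakin genes 1 was high enough to test, and this tetraspanin gene, Upk1b, fell to 1.23 ± 0.238 RPKM without Apoe (SD, n = 7), against 1.76 ± 0.334 RPKM in APPPS1 (SD, n = 6). Its difference was -0.38 (limma, adjusted p = 0.0346), opposite in sign to Upk1a. The call ended without any of APPPS1 replicates 2, 3, 5 and 6 or of APPPS1;Apoe-/- replicates 2, 3 and 5 (adjusted p = 0.0507 to 0.0795). It also ended without both low-App libraries (adjusted p = 0.106) and with the alignments covariate (adjusted p = 0.0966). Quantile normalization (adjusted p = 0.0551) and no filter on low values (adjusted p = 0.0720) ended it as well.

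Among the 82 other tested chromosome 7 genes with zinc finger symbols, 10 rose and 4 fell (17.1%). From 10 to 40 Mb these were 8 higher and 3 lower of 47 (23.4%), and elsewhere on the chromosome 2 higher and 1 lower of 35 (8.57%). Of all 260 tested genes from 10 to 40 Mb, without the 7 and Apoe, 57 were called (21.9%), a share near that of the zinc finger genes there. On other chromosomes 14 of 260 such genes rose and 2 fell (6.15%). Zfp14, which lies between Zfp84 and Kirrel2, averaged 5.47 ± 0.341 RPKM without Apoe (SD, n = 7) and 3.26 ± 0.186 RPKM in APPPS1 (SD, n = 6), a difference of 0.67 (limma, adjusted p = 3.40e-06). Zfp94 (0.73, adjusted p = 7.00e-05) and Zfp114 (0.62, adjusted p = 0.000345) were also higher without Apoe. Zfp109 was lower, at 0.413 ± 0.0781 RPKM without Apoe and 1.23 ± 0.268 RPKM in APPPS1 (-0.91, adjusted p = 7.01e-05). Zinc finger genes of a cluster are alike in sequence, and how reads matching several of them were assigned is not given in the sources used here.

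Of 413 other microRNA genes measured, 44 passed the filter, and of these 0 rose and 1 fell (2.27%, beside 8.23% of all tested genes). Of 8 long host genes of microRNAs 5 were tested, and none of these passed in limma's fit (adjusted p = 0.132 to 0.931). The microRNA gene that fell was Mir3101, 7.48 Mb beyond Apoe. It averaged 0.329 ± 0.332 RPKM without Apoe (SD, n = 7) and 1.18 ± 0.715 RPKM in APPPS1 (SD, n = 6), a difference of -1.01 (limma, adjusted p = 0.0435). Its mean without Apoe lay below the limit of 0.5 RPKM, so it passed the filter through its APPPS1 values. Its call ended without any of APPPS1 replicates 1, 2, 4 and 6 or of APPPS1;Apoe-/- replicates 2, 3, 6 and 7 (adjusted p = 0.0540 to 0.101). It also ended without both low-App libraries (adjusted p = 0.0578) and with the alignments covariate (adjusted p = 0.0870). A pseudocount of 0.1 (adjusted p = 0.0566), quantile normalization (adjusted p = 0.0569) and no filter on low values (adjusted p = 0.105) ended it as well.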

How the data were processed

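RNA was extracted from flash-frozen cortex with Trizol and made into libraries with the Clontech SMARTer kit, per the labels' protocols. The authors deposited RPKM per gene and a count of alignments per library in 1 table. Partek and mm10 were used, per the submitters' processing notes. Of the aligner, counting rule, strand use and annotation, nothing is given in the sources used here. Genotypes in the table matched the labels in 13 of 13 libraries.

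From the deposited RPKM, log2(RPKM + 0.5) was computed, and the 13343 genes averaging at least 0.5 RPKM were fitted with limma 3.58.1 in R 4.3.3 (lmFit, eBayes with a mean-variance trend, genotype the only term, two-sided, Benjamini-Hochberg adjustment over all tested genes, called under 0.05). The p-values weigh the genotype difference against the spread between these mice. Depth limits weak genes, and RPKM states no counting error. The code was tested on simulated data. Positions come from GENCODE mouse release 21 (mm10), which matched 20372 gene names by symbol, 249 by synonym and 350 not at all. The rest used Python 3.11.15 (scipy 1.17.1, numpy 2.4.6, matplotlib 3.10.9, pandas 2.3.3).

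The 7 genes, the lists of relatives and markers, and the tests were chosen with earlier results of these data known. Named were Apoe, the 7 genes, the nearest tested gene on each side, the 10 largest step shares besides Apoe and up to 4 called relatives per list, 37 genes in all, leaving out unnamed gene models; 1 of them is not reported here. Other settings were pseudocounts of 0.1 and 1, no filter or a filter of 1 RPKM, quantile normalization, median centring, no trend, log2 alignments or a sex score as a covariate, and leaving out both low-App libraries or each library.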

Additional observations from a re-analysis of the deposited data

Results flagged for a closer look

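In 74 groups of 6 or 7 libraries of the named genes, 5 had 1 library standing apart from the rest of its group by Dixon's criterion at the 95% level, which chance gives in about 1 of 20 groups, and none of the 5 was in the 7 genes described. Kmt2b, beside Upk1a, was at 1.67 RPKM in APPPS1 replicate 5, where the other APPPS1 libraries lay at 1.02 to 1.25 RPKM. Zfp30, beside Zfp84, was at 3.78 RPKM in APPPS1;Apoe-/- replicate 5, against 2.73 to 3.12 RPKM in the rest of that group. Slc11a1 was at 8.47 RPKM in APPPS1 replicate 4, where the others lay at 6.53 to 7.24 RPKM. Nudt14 was at 5.77 RPKM in APPPS1 replicate 5 (others 6.81 to 7.44 RPKM), and Nudt16 at 3.53 RPKM in APPPS1;Apoe-/- replicate 3 (others 4.71 to 5.31 RPKM).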

How the results depend on the processing

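The 7 genes kept their direction, which their choice largely fixes, in all 160 values recomputed for them. Of these, 8 moved by more than the spread within groups, all from the pseudocount: 0.1 gave 1.67 for Kirrel2, 1.83 for Upk1a, 0.91 for Zfp128, 0.84 for Zfp84 and 2.19 for Mir3099, and 1 gave 0.75 for Upk1a and 0.62 for both Zfp128 and Zfp84. Fitted with log2 alignments as a covariate, fewer genes were called: 202 of all genes in place of 1098, 45 on chromosome 7 in place of 144, 1 beside the 7 genes in place of 6 and 7 relatives in place of 19. The cause was not tested, and alignments differed between the genotypes. Without both low-App libraries 677 of all genes were called. Leaving out 1 library gave 711 (without APPPS1 replicate 6) to 1594 calls (without APPPS1;Apoe-/- replicate 4) of all genes, 100 to 175 on chromosome 7, 5 to 7 beside the 7 genes and 11 to 23 relatives. Chromosome 7 genes whose genotypes did not overlap numbered 76, and 79 to 101 with 1 library left out. Leaving out a library can only keep or raise that number, because groups that are apart stay apart. Of 687 values for the other named genes, 38 lost a call, 6 gained one and 0 changed direction among those called. No scaling moved the median of all genes by more than 0.03. No paired analysis was possible because the labels give no replicate numbers and the numbers used here only name the libraries.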
